A study of Mus musculus with 7 samples.

Results

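The 8 genes described here, Stfa1, Stfa2, Stfa2l1, Stfa3, Csta2, Csta3, Cstdc4 and Cstdc5, form the mouse stefin A cluster on chromosome 16. They were taken by symbol from the 32285 genes of the deposited count tables, and all 8 were found. They were chosen by their measured level, high in neutrophils of newborn hearts and low in those of adult hearts, so that age difference is given as a description and carries no test. Neutrophils were taken as cells with at least 1% of their unique molecular identifiers (UMIs, counted transcripts) from S100a8 and S100a9 and at least 1 UMI of Csf3r. S100a8 and S100a9 encode the neutrophil calprotectin subunits, and Csf3r encodes the receptor for the neutrophil growth factor G-CSF. This gate held 4703 of the 36645 cells kept after filtering.

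Stefins, also called type 1 cystatins, are small proteins of the cytosol that lack a secretion signal. They bind reversibly in the active site of papain-like cysteine proteases, among them cathepsins B, H, L and S, and so hold in check proteases that leak from lysosomes or enter the cell. Humans have a single stefin A gene, CSTA, known from skin and white blood cells, whereas mice carry a row of copies, several of which are known from bone marrow neutrophils.

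Hearts of C57BL6/J mice (WT) and of mice with the genotype label MerTK KO were digested after myocardial infarction (MI) or a sham operation, and single cells were profiled with 10x Genomics 3' chemistry. The 7 libraries fell into 6 groups. WT hearts gave WT P1 sham, WT P1 MI (2 libraries, replicates 1 and 2), WT 8 week sham and WT 8 week MI, and knockout hearts gave Mertk KO P1 sham and, after infarction, Mertk KO P1 MI. P1 is the first day after birth and 8 weeks is adult. Mertk encodes a receptor tyrosine kinase with which macrophages take up dying cells, and the knockout was studied only at P1. In all groups erythrocytes and dying cells were depleted, and CD45+ and CD45- cells were recombined at 2 to 1, which sets how many leukocytes a library holds. The time between surgery and collection, the number of hearts pooled in each library and the deleted portion of Mertk are not in the labels. They do not tie the replicates of WT P1 MI to different animals either, so p-values reflect only how far these 2 samples differ, which may be a technical spread.

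Libraries held 1035 to 16379 barcodes and 7707724 to 130847843 UMIs. The gate held 43 cells in WT P1 sham, 18 and 874 in the WT P1 MI replicates, 865 and 18 at 8 weeks (sham, then MI), and 436 and 2449 in the knockout (sham, then MI). In the same order, 93.0, 94.4, 59.7, 89.0, 5.56, 89.5 and 78.6% of them lay in clusters named neutrophil-like from their markers. In WT 8 week MI 17 of the 18 gated cells lay outside such clusters and 16 carried macrophage, lymphocyte, fibroblast or endothelial markers, so the gate goes against the label of neutrophils there and no contrast uses it. In WT P1 MI replicate 2, 334 gated cells lay in a monocyte-like cluster, and 459 did in Mertk KO P1 MI. Mertk itself was read at 13.7 to 51.9 UMIs per 1000000 (CPM) in macrophage-like cells, with 49.7 and 13.7 in the sham and MI libraries of the knockout, but a 3' tag may lie outside the deleted part and so checks nothing. Pairs of libraries shared 0 to 37 barcodes. Xist, expressed in female cells, stood at 46.4 to 936 CPM in the P1 libraries and at 0 to 0.0368 in both 8 week libraries. Ddx3y, a gene of the Y chromosome, stood at 65.8 to 69.0 in the 8 week libraries, at 14.9 to 83.4 in 4 P1 libraries and at 0 in Mertk KO P1 sham. The makeup by sex thus differed between libraries.

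On the genome build GRCm38 the members span 298.6 kb, from Stfa2l1 at chr16:36156811-36161953 through Cstdc4 (36184212-36188111), Csta3 (36210403-36217788), Csta2 (36221468-36257444), Stfa1 (36276951-36285373), Cstdc5 (36359382-36367748) and Stfa2 (36403992-36408457) to Stfa3 (36450537-36455392). The first 5 lie on the plus strand and the last 3 on the minus strand, and all are annotated as protein coding. One other coding gene lies in the span, Cstdc6. The 3' ends are similar enough that reads could be shared: of the 98-base stretches in the last 400 transcript bases, 86.7% (Cstdc5), 88.5% (Csta2), 92.3% (Stfa1) and 92.7% (Cstdc4) occur in no other annotated transcript, and 100% in the remaining 4 genes.

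The starts of the genes show their kinship, which is why a stretch of each is printed. In the RefSeq promoter windows of GRCm38, 250 bases before to 50 after each annotated start, 7 of the 8 members carry the same 13-base word, set in capitals in the lines that follow with the 17 bases before it, 5′ to 3′ on the gene's strand.
Stfa2l1, chr16:36156758-36156787, plus strand: aggaggagtttacagaaACCTTTAAAACCC
Cstdc4, chr16:36184163-36184192, plus strand: aggaggagtttacagatACCTTTAAAACCC
Csta3, chr16:36210306-36210335, plus strand: aggaggtttttacagatACCTTTAAAACCC
Stfa1, chr16:36277098-36277127, plus strand: aggaggagctttcggatACCTTTAAAACCC
Cstdc5, chr16:36367570-36367599, minus strand: aggaggagtttacagatACCTTTAAAACCC
Stfa2, chr16:36408383-36408412, minus strand: aggaggagcttacagaaACCTTTAAAACCC
Stfa3, chr16:36455414-36455443, minus strand: ggaggagcttacagataACCTTTAAAACCC
The word begins 12 to 80 bases before the RefSeq start, with 32 to 36 in 5 of the 7. In Stfa1, Cstdc5 and Stfa2 it lies inside the longer gene span of the GENCODE annotation. Searched on both strands, ACCTTTAAAACCC occurs in 9 of 32851 promoter windows (0.0274%), and the remaining 2 belong to Cstdc3 and Gm7260 in the same stretch of chromosome 16. A further word, GATCATTTCTTCT, occurs in the same 7 members and in 10 windows in all (0.0304%). In each of the 7 members 19 or 20 bases separate the words, which do not overlap. The words were found as the longest shared by these promoters, so their rarity elsewhere is a description. Csta2 has neither word in its window, which says only that these letters are absent there.

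In gated cells of newborn hearts the family was among the major products. Its 8 genes together made up 9.21% of all UMIs of gated cells in WT P1 sham and 6.43 and 5.71% in the WT P1 MI replicates. In the knockout they made up 8.06% after sham and 4.75% after MI. In WT 8 week sham they made up 0.113%. The lowest P1 library thus lay far above that adult library. These sums weigh deep cells most. In WT P1 MI replicate 2, gated cells of the monocyte-like cluster 8 held 33675 CPM at a median of 17096 UMIs. Its neutrophil-like clusters 6, 26 and 31 held 82133, 128604 and 96385 CPM at medians of 2580.5 to 9071 UMIs. In Mertk KO P1 MI cluster 8 held 20091 CPM at a median of 11158 UMIs, against 56871 (13 cells), 101913 and 73667 CPM. The 18 gated cells of WT 8 week MI, 17 of them outside neutrophil-like clusters, held 0.075% and are not read as neutrophils. The typical cell showed the same: the median share per cell was 9.06, 8.07, 7.05, 8.19 and 6.21% in the 5 P1 libraries in that order, and 0 in WT 8 week sham. At least 1 UMI of the family was found in 94.4 to 100% of gated cells of the P1 libraries and in 44.4% of those of WT 8 week sham.

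Values for each gene are CPM of the gated cells, a level on a linear scale, listed for WT P1 sham, replicates 1 and 2 of WT P1 MI, the adult sham library, and the knockout after sham and after MI. UMIs count transcripts from 1 end, so levels were not divided by gene length. Stfa1, stefin A1, stood at 26515, 22955, 14460, 71.3, 18609 and 10679. Cstdc5, a cystatin-domain gene, stood at 23331, 18850, 15273, 15.6, 25529 and 15710. These were the leading members at P1, Stfa1 first in WT P1 sham and WT P1 MI replicate 1 and Cstdc5 first in the other P1 libraries. Cstdc4, a further cystatin-domain gene, followed with 16296, 9884, 10652, 467, 12385 and 7480. It came after those genes in every P1 library. In WT P1 MI replicate 1 a single cell carried 42.1% of the UMIs of the 18 gated cells. With each cell thinned to 1000 UMIs, and so given equal weight, that library held Stfa2 at 7278, Csta2 at 4889, Stfa2l1 at 7444, Cstdc4 at 16222 and Csta3 at 1444, more than 1.5-fold above its summed values.

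A lower tier held 4 genes. Stfa2l1, a close relative of stefin A2, stood at 8412, 4039, 4331, 553, 5828 and 3440. Stfa2, stefin A2, stood at 7707, 3616, 5736, 1.56, 8037 and 4496. Their order changed between libraries, with Stfa2l1 higher in the first 2 and Stfa2 higher in the 3 other P1 libraries. Csta2 stood at 4600, 1952, 2585, 1.17, 5247 and 2970. Stfa3, stefin A3, stood at 3757, 2532, 3618, 5.07, 4594 and 2416. Csta2 and Stfa3 differed by at most 1.5-fold within any P1 library and also changed places. Csta3 was the lowest member in each P1 library, at 1454, 509, 475, 14.4, 416 and 268. In these summed counts it also varied most among them, 5.42-fold from highest to lowest, against 1.67-fold for Cstdc5, the steadiest. With cells weighted equally Csta3 ran from 411 to 1619. Within the neutrophil-like cluster 6 it ran from 779 to 2129 and Stfa2 from 2883 to 10539, both lowest in the 13 cells of Mertk KO P1 MI.

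**Figure D1:**
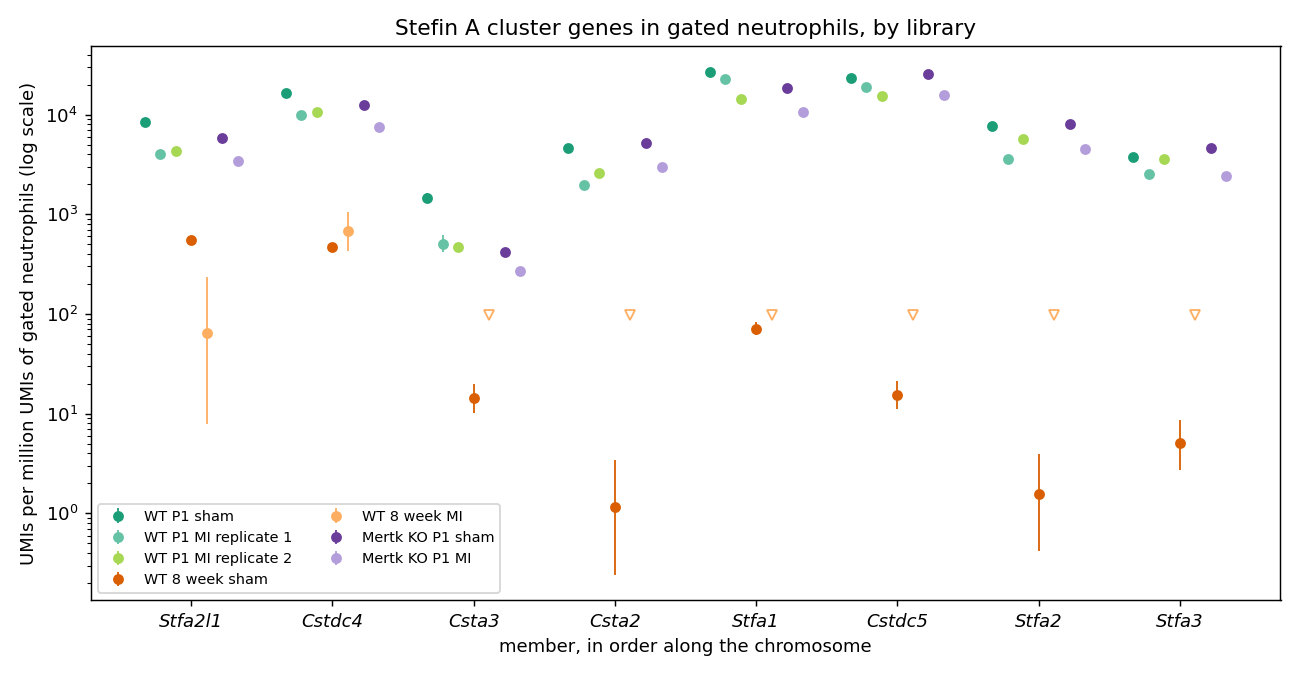
UMIs per 1000000 UMIs of gated neutrophils (CPM, log axis) for each member, in order along the chromosome, in each of the 7 libraries. Bars are 95% exact Poisson intervals, which cover counting error only, and open triangles mark 0 UMIs, drawn at the level of 3 counts. The 5 P1 libraries lie between 268 and 26515, whereas WT 8 week sham lies between 1.17 and 553.

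Every member was higher in WT P1 sham than in WT 8 week sham, but by very different folds. With 1 library a group, folds are given with 95% intervals for counting error only. They were 15.2-fold for Stfa2l1 (14.1 to 16.4) and 34.9-fold for Cstdc4 (32.6 to 37.3). Csta3 was 101-fold higher (71.3 to 146) and Stfa1 372-fold higher (321 to 433). Stfa3 was 742-fold higher (431 to 1400) and Cstdc5 1497-fold higher (1097 to 2098). For Stfa2 and Csta2 the adult library held only 4 and 3 UMIs, and the ratios of 4945 (1927 to 18173) and 3935 (1342 to 19119) are known no better than their intervals. All 8 members were at least 2-fold higher at P1, where 7.16% of the 5879 genes with 30 or more UMIs were. Beyond 16-fold stood 12 genes (0.204%), of which 7 were members, all but Stfa2l1. The rule that chose the members used this contrast, so nothing is read from these shares. The median gene differed by -0.10 on the log2 scale.

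The mix of members also differed with age. Stfa2l1 and Cstdc4, which lie beside each other at one end of the cluster, supplied 49.0 and 41.4% of the family's UMIs in WT 8 week sham. In the P1 libraries they supplied 6.28 to 9.14% and 15.4 to 18.6%. Stfa1 and Cstdc5, which supplied 22.5 to 35.7% and 25.3 to 33.1% at P1, came to 6.32 and 1.38% in WT 8 week sham. Of the 865 adult cells, 34.7% (exact binomial 95% interval 31.5 to 38.0) had a UMI of Stfa2l1 and 22.8% (20.02 to 25.72) one of Cstdc4. Stfa1 was found in 4.62% (3.32 to 6.24) and Csta3 in 2.20% (1.33 to 3.41). The remaining 4 members were each found in 0.347 to 1.62% of adult cells. As a background, 0.214% of 3268 B cell-like cells of the same library had a UMI of any member, at a median of 2641 UMIs per cell, against 44.4% of gated cells at a median of 2118.

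**Figure D2:**
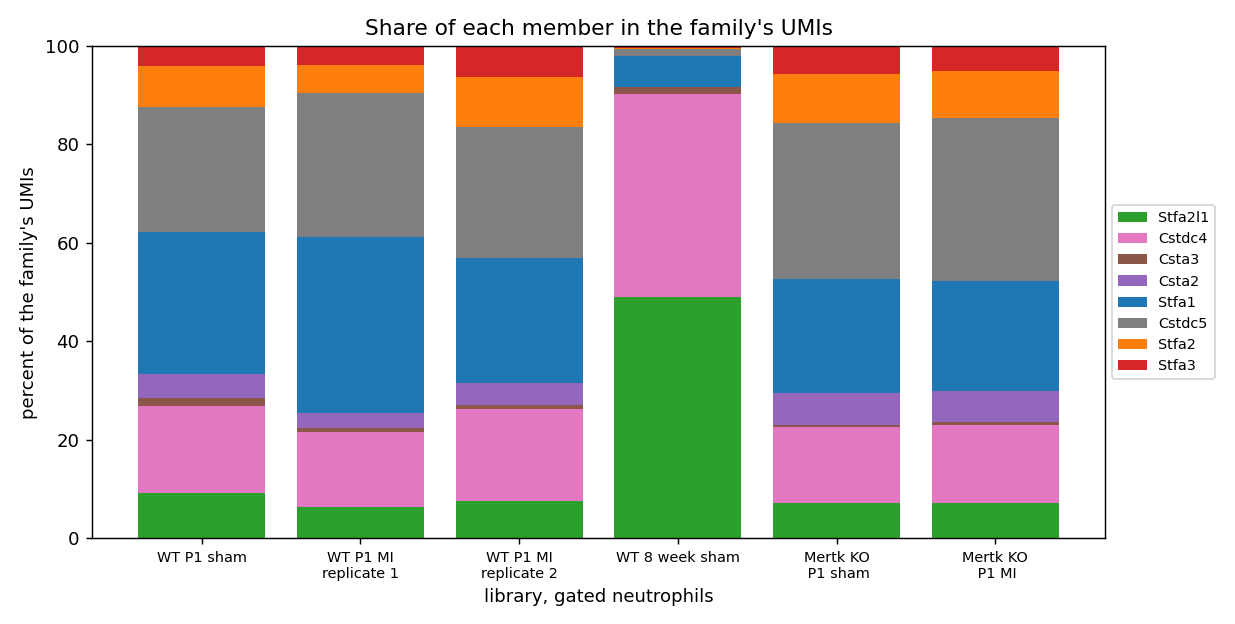
Share of each member in the family's UMIs (percent, stacked to 100) in gated neutrophils of the 6 libraries with enough such cells. Stfa2l1 and Cstdc4 fill 49.0 and 41.4% of the bar of WT 8 week sham, but at most 9.14 and 18.6% of the bars of the P1 libraries.

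Several measured properties moved with age beside the family. Gated cells were shallower in WT 8 week sham, with a median of 2118 UMIs, than in the P1 libraries, with medians of 2946 to 8034. After each cell was thinned to 1000 UMIs, Stfa2l1 was still found in 27.1% and Cstdc4 in 17.3% of the adult cells, against 77.8 to 97.6% and 88.9 to 100% at P1. No member was found in 64.0% of thinned adult cells, against 0 to 5.56% at P1, and 6 or more members in 0% against 66.7 to 95.2%. The stage of the cells moved as well: transcripts of the secondary granules (Camp, Ltf and Ngp, made before release from bone marrow) reached 0.1% of UMIs in 3 of 865 adult cells and in 9.76 to 34.6% of gated cells of the P1 libraries. Among cells below that level the summed family was 59.4-fold higher in WT P1 sham than in WT 8 week sham, against 81.5-fold in all gated cells. Cluster 6, the neutrophil-like cluster with the mature markers Csf3r and Cxcr2 among its leading genes, held 768 of the 865 adult cells and 37 of the 43 of WT P1 sham. Within it the family stood at 91087 CPM in WT P1 sham and at 1490 in WT 8 week sham, a 61.1-fold difference. Sex also moved with age. Mertk KO P1 MI had the lowest Xist of the P1 libraries, at 46.4 CPM over all its cells, with Ddx3y at 50.8. It held the family at 47459 CPM, against 1129 in WT 8 week sham, from which it also differs in genotype and surgery. The part of sex in the age difference was not tested.

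Cells just outside the gate were ordered in the same way. Neutrophil-like cells that the gate had missed held the family at 107317 CPM in WT P1 MI replicate 2 (116 cells), and at 87222 (161 cells) and 64845 (1002 cells) in the sham and MI libraries of the knockout. In WT 8 week sham they held 1939 (64 cells). Barcodes were hardly shared: 3 of the 865 adult cells shared a barcode with a P1 library, and they held 8 of 2898 family UMIs. Stfa1 in the adult was concentrated, with 74 of its 183 UMIs in 5 cells. The part of depth or of the Cell Ranger version in the age difference was not tested.

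In newborn hearts most gated cells held most members. All 8 were detected together in 69.8% of gated cells of WT P1 sham, in 61.1 and 76.2% of those of the WT P1 MI replicates, in 49.8 and 52.4% in the knockout after sham and after MI, and in none of the adult cells. At 1000 UMIs per cell these shares came to 35.7, 22.2, 28.4, 18.3 and 20.1% in the same order. Since nearly every cell held nearly every member, co-detection says little at P1: over the 28 pairs in the 3 largest P1 libraries, the share of cells with both was 0.77 to 1.17 times the product of the separate shares, with medians of 1.03. The levels per cell carry more. Across gated cells thinned to 1000 UMIs, the 28 pairs of members had a median Pearson r of log(1 + UMIs) of 0.58 in WT P1 MI replicate 2 (870 cells), and 0.45 (431 cells) and 0.49 (2402 cells) in the knockout after sham and after MI. In WT 8 week sham (859 cells) the median was 0.00. There Stfa2, Csta2, Stfa3, Cstdc5 and Csta3 were found in only 2, 2, 4, 10 and 12 cells, so that median says little. Among cells of neutrophil-like clusters only, the P1 medians were lower, at 0.34 (518 cells), 0.30 (385 cells) and 0.31 (1878 cells). These are descriptions across cells of 1 library, which share that library's background and are not replicates.

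The closest pair at P1 was Stfa2 and Cstdc5, neighbours on the minus strand, with r of 0.82, 0.83 and 0.79 in those 3 libraries. Cstdc4 and Cstdc5 followed with 0.80, 0.74 and 0.71. Stfa2l1 and Cstdc4, neighbours on the plus strand, had 0.73, 0.71 and 0.64. In neutrophil-like clusters only, these pairs came to 0.68, 0.73 and 0.70, to 0.61, 0.53 and 0.51, and to 0.45, 0.48 and 0.43. Csta3 stood apart from its family: its r with the other 7 ran from -0.34 to 0.36, and its lowest was with Stfa3, at -0.08, -0.34 and 0.03. With Stfa3 it came to -0.34, -0.43 and -0.07 in neutrophil-like clusters only. In the adult, Stfa2l1 and Cstdc4 still went together, with r of 0.36. Both were found in 92 of 859 thinned cells (10.7%), where the product of their separate shares is 4.70%. The adult r of 0.53 for Stfa2 and Cstdc5 rests on 1 cell with both.

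**Figure D3:**
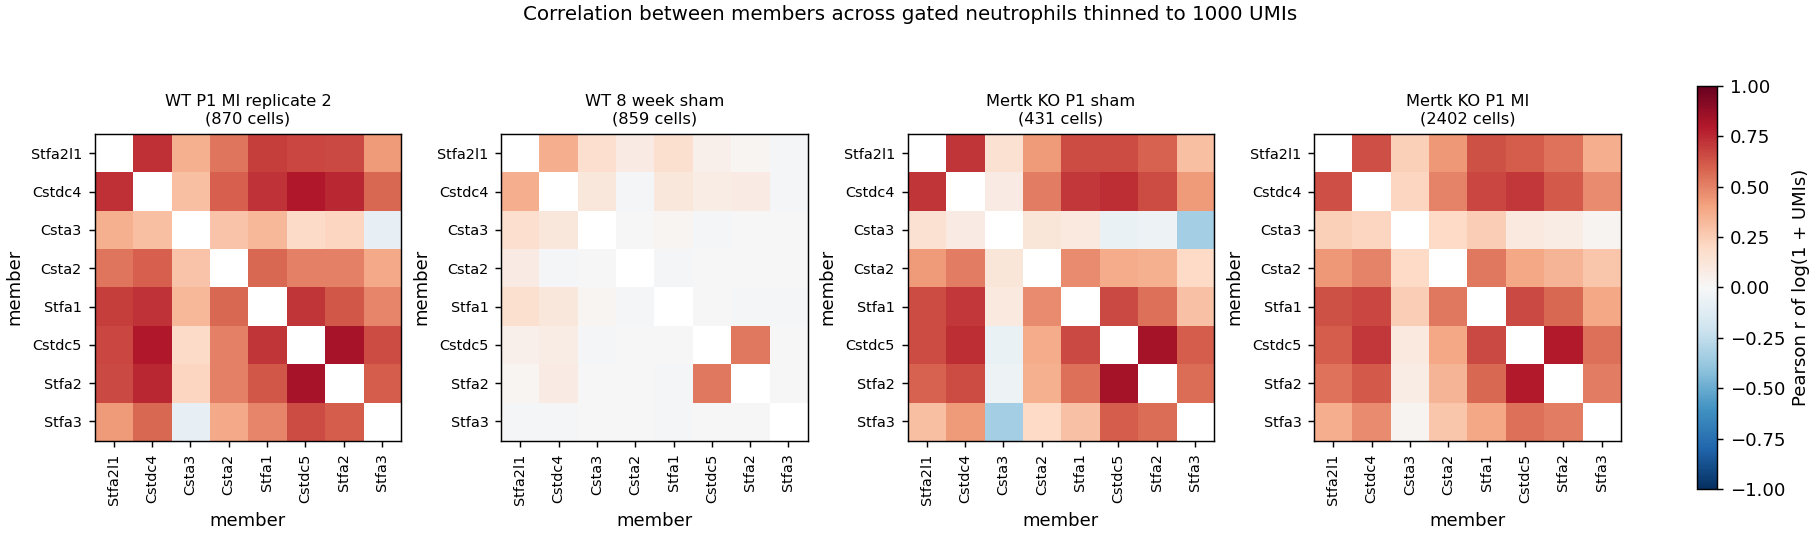
Pearson r of log(1 + UMIs) between members across gated neutrophils thinned to 1000 UMIs, in the 4 libraries with at least 100 such cells, on a colour scale from -1 to 1, with members in order along the chromosome. The P1 libraries have medians of 0.45 to 0.58 over the 28 pairs, Csta3 is pale in each, and in WT 8 week sham the pairs sit near 0 except Stfa2l1 with Cstdc4 (0.36) and Stfa2 with Cstdc5 (0.53, from 1 shared cell). In that library Stfa2, Csta2, Stfa3, Cstdc5 and Csta3 were each found in 2 to 12 of 859 cells.

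Members also differed in which newborn neutrophils held them. In WT P1 MI replicate 2, cells with secondary granule transcripts at 0.1% or more held the family at 102747 CPM of thinned UMIs (186 cells), against 64975 in the others (684 cells). In Mertk KO P1 sham the values were 109193 (150 cells) and 66413 (281 cells), and in Mertk KO P1 MI 81782 (238 cells) and 58883 (2164 cells). The family was thus 1.39 to 1.64 times as high in granule-positive cells, in 3 of 3 libraries. Stfa3 was 2.23 to 3.15 times as high and Cstdc5 1.67 to 2.28 times as high. Stfa2, Stfa1, Cstdc4 and Csta2 were 1.08 to 1.68 times as high. Stfa2l1 stood at 0.99 to 1.16 times. Csta3 ran the other way, at 0.25 to 0.53 times its level in the granule-negative cells, lower in 3 of 3 libraries. The granule-negative cells include those of the monocyte-like cluster 8, which held less of the family (33675 CPM in WT P1 MI replicate 2). In neutrophil-like clusters only, the family was 1.30 to 1.45 times as high in granule-positive cells, Stfa3 2.07 to 2.90 times, Cstdc5 1.55 to 1.99 times and Csta3 0.22 to 0.51 times. Csta2 stood at 1.03 to 1.14 times and Stfa2l1 at 0.93 to 1.01 times there.

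The 3 neutrophil-like clusters, built without the family's genes, also differed in which members they held. Cluster 26 was led by Ngp, Camp and Ltf, cluster 31 by Prok2, Ifitm1 and Retnlg, and cluster 6 had Csf3r and Cxcr2 among its leading genes. In WT P1 MI replicate 2 Stfa3 stood at 9559, 4976 and 2282 CPM in clusters 26, 31 and 6. In Mertk KO P1 sham it stood at 7582, 4146 and 1363. Csta3 was ordered the other way, with 333, 1031 and 2129 in WT P1 MI replicate 2 and 187, 546 and 1809 in Mertk KO P1 sham. Cstdc5 was ordered like Stfa3, at 38374 to 40707 over the P1 libraries in cluster 26, 23745 to 24681 in cluster 31 and 13556 to 21677 in cluster 6. Not every member followed this order. Csta2 was highest in cluster 31 in 3 of 3 libraries, at 4799 against 4537 in cluster 26 in WT P1 MI replicate 2, 6948 against 5953 in Mertk KO P1 sham and 4411 against 4331 in Mertk KO P1 MI. Stfa2 was highest in cluster 31 in WT P1 MI replicate 2, at 11527 against 10888. The order of clusters is by their leading genes, and no time was measured.

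**Figure D4:**
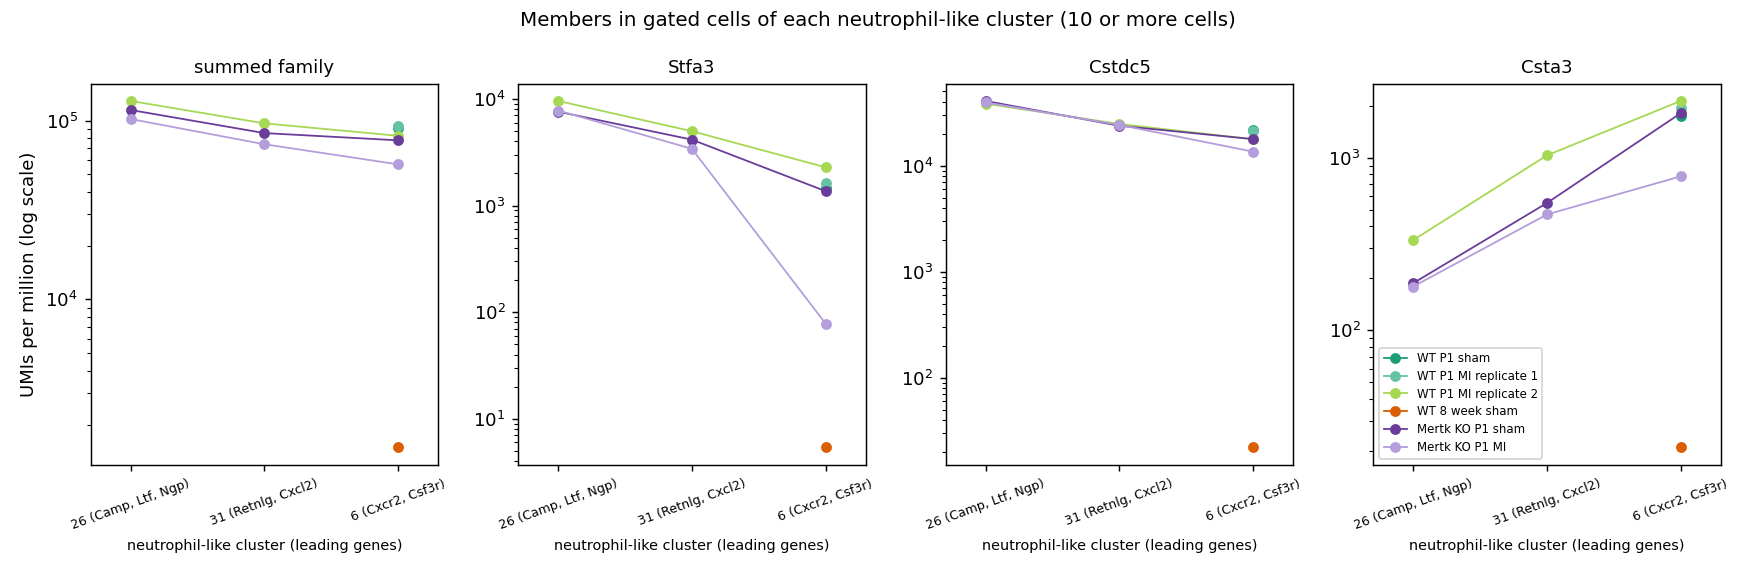
CPM (log axis) of the summed family, Stfa3, Cstdc5 and Csta3 in gated cells of the 3 neutrophil-like clusters, for each library with at least 10 such cells, with lines joining clusters of the same library. Stfa3 and Cstdc5 are highest in cluster 26 and Csta3 in cluster 6, and WT 8 week sham, present in cluster 6 only, lies below every P1 library there. The Stfa3 point of Mertk KO P1 MI in cluster 6 (77.9) rests on 1 UMI in 13 cells.

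Among 719 genes outside the family found in at least 10% of gated cells of each of 4 libraries, those whose level per cell went most with the summed family were S100a9 (mean r 0.61) and S100a8 (0.53), both used to set the gate. Next came Retnlg (0.44), a resistin-like secreted protein, and Pglyrp1 (0.33), a granule protein that binds bacterial peptidoglycan. Ifitm1 (0.33), an interferon-induced membrane protein, S100a11 (0.30) and the secondary granule protein gene Lcn2 (0.30) followed, with Wfdc21 (0.29) eighth. In the P1 libraries r for Retnlg was 0.63, 0.55 and 0.58. In WT 8 week sham, where 64.0% of thinned cells held no member, it was 0.0014. The lowest values belonged to the ribosomal protein genes Rpl32 (-0.46), Rps18 (-0.45), Rps20 (-0.45) and Rpl13 (-0.44). All these r values are over all gated cells, also those of the monocyte-like cluster 8, which held less of the family. They may thus reflect differences between kinds of cells, and none are given for neutrophil-like clusters only.

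The knockout was compared with WT after MI in newborns, the only genotype contrast with a replicated group. In a fit of summed counts over all 7 libraries with edgeR's quasi-likelihood test and Benjamini-Hochberg adjustment, 89 of 10793 genes (0.825%) passed an adjusted p of 0.05 and a 2-fold change, and 0 of the 8 members did. None of the 8 had an unadjusted p under 0.05, as 490 of all genes did, and DESeq2 called 3 genes, none of them a member. The log2 fold changes of the members, Mertk KO P1 MI over WT P1 MI, ran from -0.60 (SE 0.71) for Csta3 and -0.50 (SE 0.76) for Stfa1 to 0.64 (SE 0.70) for Csta2. Each had an adjusted p of 0.9999 by the edgeR quasi-likelihood test. The members' median was -0.06, beside 0.02 for all genes. With standard errors of 0.70 to 0.76 a 2-fold difference, 1 on the log2 scale, could not be told from 0, and the spread rests on 1 residual degree of freedom, from the 2 WT P1 MI libraries. The make-up of the gate differed between these libraries. The monocyte-like cluster 8 held 0 of 18 gated cells in replicate 1, 334 of 874 in replicate 2 and 459 of 2449 in Mertk KO P1 MI. Its part in the fold changes and their spread was not tested.

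Without surgery beyond the sham, the knockout was 1 library against 1. Mertk KO P1 sham differed from WT P1 sham by -0.53 (Stfa2l1), -0.51 (Stfa1), -0.40 (Cstdc4), 0.06 (Stfa2), 0.13 (Cstdc5), 0.19 (Csta2) and 0.29 (Stfa3) on the log2 scale. Csta3 differed most, by -1.81 (95% counting interval -1.999 to -1.607). Over the processing alternatives Csta3 ran beyond that interval, from -2.11 with the gate at 5% to -1.04 with cells weighted equally. It was the only member at least 2-fold lower, as 15.7% of 5478 genes were, and 0 members were at least 2-fold higher, as 11.6% of genes were. Within cluster 6 the gap of Csta3 was absent, with 1735 CPM in WT P1 sham and 1809 in Mertk KO P1 sham. That cluster held 37 of 43 gated cells of WT P1 sham but 135 of 436 of Mertk KO P1 sham, where 122 lay in cluster 26 and 133 in cluster 31. Ddx3y also moved with this contrast, at 83.4 CPM over all cells of WT P1 sham and 0 in Mertk KO P1 sham, and its part was not tested.

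After MI, gated cells of newborn hearts held less of the family in WT without passing the test, and less in the knockout, where there was no test. In WT, where 43 sham cells were set against 18 and 874 cells, 13 of 10793 genes (0.12%) were called by the edgeR quasi-likelihood test with Benjamini-Hochberg adjustment and 0 of the 8 members. One member, Csta3, had an unadjusted p under 0.05, as 694 of all genes did, and DESeq2 called 0 genes. The members' log2 fold changes, MI over sham, were all negative, from -0.38 (SE 0.70) for Stfa3 to -1.12 (SE 0.70) for Stfa2l1 and -1.68 (SE 0.67) for Csta3. Their edgeR adjusted p-values were 0.53 for Csta3 and 0.86 to 0.92 for the rest. The median over members was -0.79, beside 0.40 for all genes. For Csta3 the values were 1454 in sham against 509 and 475, and yet within cluster 6 they were 1735 against 1949 and 2129. With cells weighted equally they were 1619 against 1444 and 797. The make-up of the gate moved with this contrast: 334 of 874 gated cells of replicate 2 lay in the monocyte-like cluster 8, at 33675 CPM of the family, against 1 of 43 in sham. Within cluster 6 the summed family stood at 91087 in sham, and at 93530 and 82133 in the MI replicates, on either side of it. Without the single large cell of replicate 1, Stfa3 came to 0.11 on the log2 scale and the other members stayed negative, from -0.0028 (Cstdc5) to -1.10 (Csta3).

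In the knockout all 8 members were lower after MI than after sham, by -0.63 (Csta3) to -0.93 (Stfa3) on the log2 scale, while the median of 10102 genes was 0.23. None was 2-fold lower, as 3.73% of genes were. With 1 library a group there was no test. The make-up of the gate moved with this difference. Of gated cells, 34.6% were granule-positive after sham and 9.76% after MI, and 40 of 436 against 459 of 2449 lay in the monocyte-like cluster 8, where the gated cells held the family at 19989 and 20091 CPM. In gated cells of neutrophil-like clusters only, the summed family differed by -0.39, against -0.76 in all gated cells. The makeup by sex moved with it as well, with Xist at 763 and Ddx3y at 0 CPM after sham against 46.4 and 50.8 after MI, and its part was not tested. Within single clusters the family was still lower after MI, at 101913 against 114480 in cluster 26, 73667 against 85053 in cluster 31 and 56871 (13 cells) against 77472 in cluster 6.

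The proteases that stefins bind and the other inhibitors were read from fixed lists in the same fit. Of 12 cathepsins and related proteases 11 could be tested, and 0 were called in either contrast, with a median log2 fold change of 0.45 for knockout over WT and 0.65 for MI over sham. Ctsb, encoding cathepsin B, stood at 259, 197, 677, 470, 379 and 579 CPM in the order of libraries used above, and Ctss, encoding cathepsin S, at 204, 136, 695, 482, 283 and 513. For both, the adult value lay within the P1 range but above WT P1 sham. The P1 values above the adult were those of WT P1 MI replicate 2 and Mertk KO P1 MI. Their gates held 334 and 459 cells of the monocyte-like cluster 8, whose part was not tested. Cstb, encoding stefin B, the other stefin of the mouse, stood at 99.2, 55.5, 274, 236, 138 and 160. For it only WT P1 MI replicate 2 lay above the adult. Cst3, encoding the secreted cystatin C, was higher in the adult library, at 2218, than in the P1 libraries, at 535 to 1636. Cstdc6, the coding gene inside the cluster's span that is not a member, stood at 132, 30.3, 37.1, 0, 46.4 and 31.3. Of 15 other cystatins 4 could be tested and 0 were called. Csta1 had 3 UMIs in all gated cells.

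Of 9 genes listed as serine proteases and inhibitors, 5 were called lower in the knockout than in WT after MI: Elane, Ctsg, Mpo, Prtn3 and Serpinb1a. The first 4 encode enzymes of the primary granules, made early in neutrophil development. Of these, Mpo encodes a peroxidase, listed beside the serine proteases. Serpinb1a encodes an inhibitor of the serine proteases. A single cell of WT P1 MI replicate 1 weighed on these calls. It carried 83583 UMIs and held 986 of the library's 988 gated Elane UMIs, 958 of 984 of Prtn3, all 618 of Mpo, all 203 of Ctsg and 119 of 166 of Serpinb1a. Without it Mpo and Ctsg fell below the low count filter and Prtn3 was no longer called, at -0.70 on the log2 scale (edgeR adjusted p of 1). Elane (-3.64, edgeR adjusted p of 0.000449) and Serpinb1a (-2.38, edgeR adjusted p of 0.0422) were still called lower. Of 8 secondary granule genes 2 were called lower, Camp and Chil3, with or without that cell, and 0 of 10 late neutrophil genes were called. In the same library another cell, of 35920 UMIs, held 71.4% of Camp UMIs, 57.2% of those of Chil3 and 43.2% of the family's. No setting left out that cell alone, so its part in the calls of Camp and Chil3 was not tested. For MI over sham 3 of the 9 genes listed as serine proteases and inhibitors were called higher (Elane, Mpo and Prtn3). None of these was called without the cell of 83583 UMIs, where Mpo could not be tested.

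Outside the gate most of the family's UMIs lay in neutrophil-like cells that the gate had missed, which held 67.6 to 98.8% of them in the 5 P1 libraries. Cells that lay neither in the gate nor in neutrophil-like clusters or the monocyte-like cluster 8 held the family at 0.00065 to 0.0770% of their UMIs at P1 and at 0.000306% in WT 8 week sham. Cluster 8 outside the gate held more, 0.600% in WT P1 MI replicate 2 (285 cells), and 0.385% (112 cells) and 0.461% (1291 cells) in the knockout after sham and after MI. Stfa1 was found in 60.7, 47.3 and 59.3% of these cells. In T cell-like, B cell-like, fibroblast-like and endothelial-like cells of WT P1 MI replicate 2, 48.8, 40.1, 42.9 and 45.5 family UMIs were counted per 100 UMIs of S100a8 and S100a9, close to the 42.8 of gated neutrophils. In Mertk KO P1 MI the corresponding values were 59.0, 46.5, 57.4 and 66.2 against 47.7. In the adult, gated neutrophils had 1.23. Lymphoid and stromal cells thus held family and calprotectin UMIs in a ratio near that of the neutrophils in WT P1 MI replicate 2. In Mertk KO P1 MI the ratio was near it in B cell-like cells and higher in the rest. Where the UMIs in such cells come from was not tested.

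One group of cells outside the gate held another mix. Cluster 13, monocyte-like with Ear2, Treml4 and Ace in front, had 206 cells outside the gate in Mertk KO P1 sham with 624 family UMIs. Of these 223 were Stfa3 (in 59 cells), 186 Stfa1 (34 cells) and 166 Csta2 (45 cells). Cstdc4 and Cstdc5, 15.4 and 31.7% of the family in that library's neutrophils, gave 23 and 9. Stfa3 was thus found in 28.6% of these cells, at a median of 7197 UMIs, against 2.54% of 118 B cell-like cells at a median of 3749. In WT P1 sham the 47 cells of this cluster held 179 family UMIs, of which 79 were Stfa1 (54 of them in 1 cell), 74 Stfa3 (13 cells) and 24 Csta2 (9 cells). Cstdc5 gave 2 there and Cstdc4, Stfa2, Stfa2l1 and Csta3 gave 0. In WT P1 MI replicate 1 the 21 cells held 34, of which 25 were Csta2. In WT P1 MI replicate 1 Cstdc4 and Cstdc5 gave 0. The other MI libraries held more of the neutrophils' leading genes, with Cstdc4 and Cstdc5 at 15.3 and 12.6% of 301 family UMIs in WT P1 MI replicate 2 and at 26.5 and 18.7% of 230 in Mertk KO P1 MI.

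The adult library had a comparable case. Cluster 12, left unnamed and led by Prg4, Alox15 and Slc7a2, held 866 cells outside the gate in WT 8 week sham with 107 family UMIs. Stfa3 gave 37 of these, in 28 cells, where the 865 adult neutrophils together had 13. Stfa2l1 gave 28, Cstdc4 21 and Csta2 17, whereas Stfa1 and Stfa2 gave 1 each and Cstdc5 0. At 2.98 CPM, Stfa3 in these cells stood within the counting interval of its level in adult neutrophils, 5.07 (2.70 to 8.66). Over all cells outside the gate in that library Csta2 had 75 UMIs, at 0.951 CPM. That lay within the counting interval of its level in adult neutrophils, 1.17 (0.241 to 3.42). Macrophage markers scored highest in cluster 12. Since 883 of its 965 cells come from 1 library, cell type and library cannot be told apart there.

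**Figure D5:**
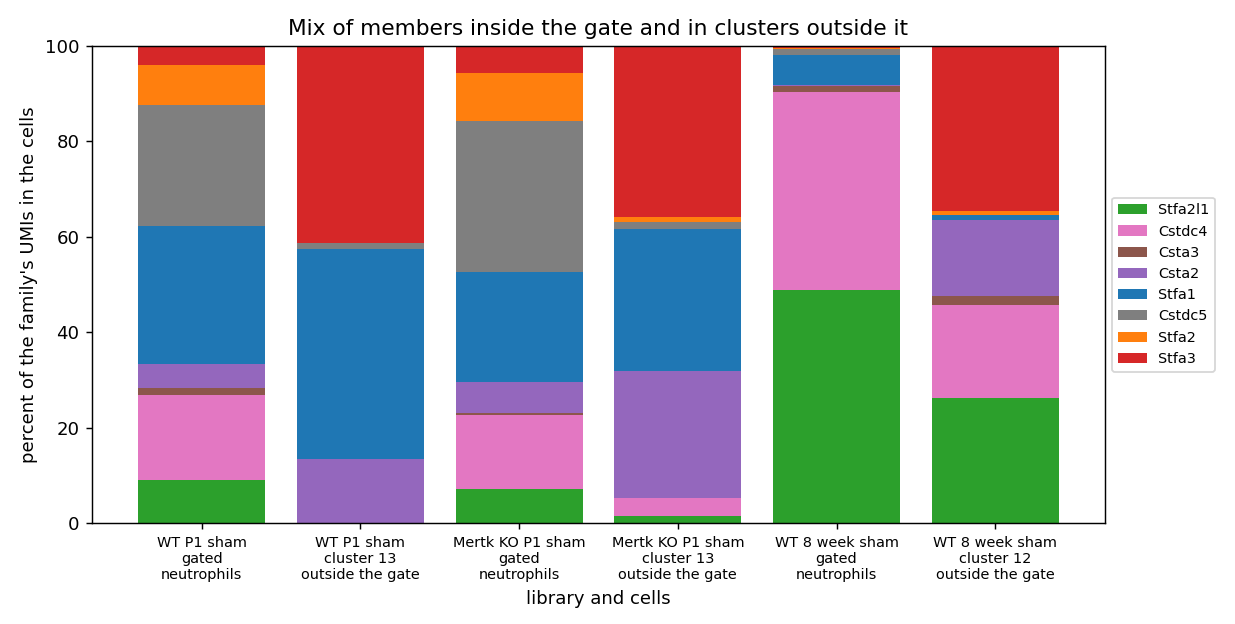
Share of each member in the family's UMIs (percent, stacked to 100) in gated neutrophils and, beside them, in cells of cluster 13 or 12 outside the gate, for WT P1 sham, Mertk KO P1 sham and WT 8 week sham. Stfa3 fills 41.3, 35.7 and 34.6% of the bars outside the gate and 4.08, 5.70 and 0.449% of those of the neutrophils. The bars outside the gate rest on 179, 624 and 107 UMIs.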

How the data were processed

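The authors deposited un-normalized UMI counts for each gene in each barcode, produced with Cell Ranger on GRCm38, per the submitters' processing notes. Version 4.0.0 is named in the design text and in the headers of 5 libraries. The headers of the WT 8 week sham library and of replicate 2 of WT P1 MI name 6.1.0, so the version differs between the sides of the age contrast. It also differs between the WT P1 MI replicates, whose spread the p-values rest on, and so within both tested contrasts. Its part there was not tested. Strand and multi-mapping settings are not given in the sources used here.

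Cells were required to have 500 UMIs, 300 genes and no more than 15% mitochondrial UMIs. Scrublet's automatic threshold marked under 0.5% of the cells that passed these limits in 5 libraries, so a set share of top-scoring cells was dropped in its place, 0.8% per 1000 barcodes. Cells were clustered with scanpy 1.11.5 (2000 variable genes without the family, 30 components, 15 neighbours, Leiden resolution 1) and named only from fixed markers. Counts were summed per library over gated cells and tested in 1 fit with 1 term per group by edgeR 4.0.16 (R 4.3.3; quasi-likelihood, TMM, filterByExpr, Benjamini-Hochberg over all genes tested). Calls needed an adjusted p below 0.05 together with a log2 change of 1 or more. A group with 1 library is taken to vary as the replicated WT group does. Gated cells held 30665 to 14279757 UMIs per library, and WT 8 week MI entered the fit but no contrast. Poisson and binomial intervals are exact, at 95%, and cover counting error only. Correlations, co-detection and granule splits used cells thinned to 1000 UMIs, in libraries with at least 100 gated cells. The scripts were tested on simulated data.

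The members, the gate and the gene lists were chosen with earlier results of these data known. Genes named in the text are the 8 members, the 8 genes most and 4 least like the summed family, and list members that were called with at least 30 UMIs. Genes of the cathepsin and cystatin lists with values were chosen after those were seen. Alternatives covered DESeq2 1.42.0, scaling, the low count filter, the gate, granule-low cells, cell and doublet filters, left-out replicates and an additive fit. A further 3 were chosen after seeing the data: gated cells in neutrophil-like clusters, equal weight for each cell, and the largest gated cell of WT P1 MI replicate 1 left out. Gene positions come from GENCODE vM21 and promoter sequences from RefSeq. Stfa1, Csta2, Cstdc4 and Cstdc5 share part of their 3' sequence with other transcripts, and their counts depend on how reads were assigned.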

Additional observations from a re-analysis of the deposited data

Results flagged for a closer look

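Stfa3 was 0.29 higher on the log2 scale in Mertk KO P1 sham (4594 UMIs per 1000000 of gated neutrophils) than in WT P1 sham (3757), while in Mertk KO P1 MI (2416) it lay below both WT P1 MI libraries (2532 and 3618). The knockout thus stood on opposite sides of WT in the 2 kinds of surgery in summed counts. With cells weighted equally it did not, since Stfa3 stood at 2777 in Mertk KO P1 MI, between the WT P1 MI libraries (2611 and 4029). The log2 fold change of knockout over WT after MI also came to 0.25 in granule-low cells and 0.27 in the additive fit. This difference was not tested, since each sham group is 1 library. The range of Stfa3 between neutrophil-like clusters within Mertk KO P1 sham, 1363 to 7582, was wider than either gap.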

How the results depend on the processing

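No paired analysis was possible because only the WT P1 MI libraries carry replicate numbers. No member was called in any of the 13 settings that gave a test of either contrast (leaving out a replicate gives none), with edgeR or DESeq2 adjusted p-values of 0.75 to 1 for knockout against WT and 0.25 to 1 for MI against sham. The count of called genes was less stable. For knockout against WT after MI it was 89, and it became 3 with DESeq2, 266 without the low count filter, 32 with the gate at 5%, 33 without cells bearing markers of other types, 383 in granule-low cells, 27 in neutrophil-like clusters and 235 without the largest gated cell of replicate 1. For WT P1 MI against WT P1 sham it was 13, and it became 0 with DESeq2, 20 without TMM, 8 without cells bearing other markers, 2 in granule-low cells, 55 without the cell filter, 55 without doublet removal, 0 in neutrophil-like clusters and 91 in the additive fit.

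In 27 of 224 recomputations a member's log2 fold change, never called, changed sign. For knockout against WT these were Stfa2 at -0.0558 without TMM, -0.0900 in granule-low cells and -0.35 to 0.31 without either WT P1 MI replicate, and Cstdc5 at -0.12 without TMM and -0.26 to 0.0407 without either replicate. Without the largest cell, Stfa2 came to -0.28, Cstdc5 to -0.40 and, for MI against sham, Stfa3 to 0.11. Stfa3 came to 0.25 in granule-low cells and 0.27 in the additive fit. Stfa2l1 came to 0.0126 without the low count filter, 0.11 without cells bearing other markers, 0.00778 without the cell filter, 0.0123 without doublet removal and 0.0201 in neutrophil-like clusters. For MI against sham, the gate at 5% gave 0.0644 for Stfa1, 0.15 for Stfa3 and 0.14 for Cstdc5, and granule-low cells gave 0.0752 for Stfa2, 1.35 for Stfa3 and 0.12 for Csta2. Neutrophil-like clusters gave 0.0548 for Stfa2, 0.33 for Stfa3 and 0.0804 for Cstdc5. Stfa3 also came to 0.71 without cells bearing other markers, 0.0127 without the cell filter and 0.0170 without doublet removal.

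The log2 ratio of the summed family in WT P1 sham over WT 8 week sham was 6.35. It was 6.41 without S100a8 and S100a9, 6.18 with the gate at 5%, 6.08 without cells bearing other markers, 5.89 in granule-low cells, 6.69 without the cell filter, 6.69 without doublet removal, 6.21 in neutrophil-like clusters and 6.05 with equal cells, or 59.4-fold to 103-fold. In the same order, leaving out the gate at 5%, Mertk KO P1 sham over WT P1 sham moved from -0.19 to -0.12, -0.14, -0.35, 0.0477, 0.0647, -0.14 and -0.17, so its direction depends on doublet removal, which is also left out without the cell filter. Mertk KO P1 MI over Mertk KO P1 sham moved from -0.76 to -0.88 without S100a8 and S100a9, -0.51 with the gate at 5%, -0.43, -0.29, -0.82, -0.83, -0.39 and -0.41. The cause was not tested. The low count filter does not enter the 1-library ratios and was not run for them. With 3 and 4 adult UMIs, depth limits the ratios of Csta2 and Stfa2 most.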
